A study of Mus musculus with 44 samples.

Results

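The synaptic vesicle and SNARE genes described here were chosen by gene symbol from the platform annotation: the synaptotagmins (Syt), syntaxins (Stx), syntaxin binding proteins (Stxbp), vesicle associated membrane proteins (Vamp), the SNAP proteins Snap23, Snap25, Snap29, Snap47 and Snap91, the synapsins (Syn1 to Syn3), the SV2 proteins (Sv2a, Sv2b and Sv2c) and the complexins (Cplx). They numbered 58 genes of 18101 with values on either array, 58 on the Affymetrix MOE430 2.0 array (121 probesets) and 44 on the Illumina MouseRef-8 array (62 probes), so that 44 had values on both. Striatal RNA of naïve adult mice of the inbred strains C57BL/6J (B6) and DBA/2J (D2) was hybridized with 1 array per mouse. The Affymetrix set held 10 B6 and 10 D2 mice, 5 of each sex per strain, and the Illumina set held 12 B6 and 12 D2 males. Every difference below is B6 minus D2, on the log2 RMA scale for Affymetrix and on the variance-stabilized (VST) scale for Illumina, which is close to log2 for bright probes and compressed for dim ones.

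Neurotransmitter release depends on SNARE proteins that zip together: a vesicle SNARE of the Vamp group pairs with target SNAREs of the syntaxin and SNAP groups, and the resulting bundle pulls the vesicle onto the plasma membrane. Syntaxin binding proteins of the Sec1/Munc18 family organise this assembly, complexins hold it ready, and synaptotagmins such as Syt1 and Syt2 act as the calcium sensors that trigger fusion. Synapsins tether vesicles in reserve pools, SV2 proteins sit in the vesicle membrane, and other syntaxins and Vamps serve traffic between the Golgi, endosomes and lysosomes in all cells. Bulk striatum holds the cell bodies of medium spiny neurons and the terminals, but not the cell bodies, of cortical and thalamic inputs, so these data report transcripts made within the dissected tissue. Fewer cells of a type and less RNA per cell cannot be told apart in such samples.

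With all arrays, the share of these genes called between the strains lay below that of all genes on the Affymetrix arrays. It lay near that of all genes once B6 array 64 was left out. On the Illumina arrays the share lay above that of all genes. There the called probes of Stx8 and Vamp8 passed the filter through B6 alone. Whether either share differs from that of all genes was not tested. After a filter on low values, 53 genes (96 probesets) were tested on the Affymetrix arrays, leaving 25 probesets under the filter, and 36 genes (49 probes) on the Illumina arrays, leaving 13. On the Affymetrix arrays, limma called 4 of the 53 genes at an adjusted p under 0.01, which is 7.55%, against 12.5% of all genes tested. B6 array 64 lay between the strains at probesets that separate them. Its median position was 0.53 over 360 probesets, on a linear scale with the D2 mean at 0 and the mean of the other 9 B6 arrays at 1. These 360 are only a part of the probesets at which those 9 arrays did not overlap D2. With all 10 B6 arrays, 624 tested probesets already had no overlap. Without array 64, 7 of the 53 genes were called (13.2%, against 13.8% of all genes). The added genes were Vamp3, Syt7 and Syt11. With all arrays and by probeset the count was 6 of 96 (6.25%, against 9.7% of all probesets). Each of the 4 genes called with all arrays, Sv2c, Stxbp4, Syt14 and Syt2, was lower in B6, the direction in which 6.35% of all genes were called (660 genes were called the other way). On the Illumina arrays 7 of 36 genes were called (19.4%, against 11.6% of all genes), and 7 of 49 probes (14.3%, against 9.77% of all probes). Of these, Stx8, Sv2b, Syt11 and Vamp8 were higher in B6 and Stxbp4, Syn2 and Syt4 were lower, and over all genes 6.23% were called higher in B6 and 5.34% lower. Stxbp4 was the 1 gene called on both arrays.

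The range of uncalled members is partly set by the calling, and it took in differences wider than those of some called probesets and probes. The 90 uncalled Affymetrix probesets differed by -0.53 to 0.21, and 84 of them had a 95% interval inside 0.5 either way. The 42 uncalled Illumina probes differed by -0.29 to 0.19, with 39 intervals inside 0.5. The median difference of the members was -0.07 on the Affymetrix arrays and -0.06 on the Illumina arrays, beside -0.03 and -0.02 over all features tested. In B6 the lower mean was seen for 74 of 96 member probesets (77.1%, against 59.4% of all) and for 31 of 49 member probes (63.3%, against 54.6%). Taking each gene's brightest probe on each array, 25 of the 36 members tested on both arrays had the same sign, 22 of them lower in B6 and 3 higher. That share was 69.4%, beside 62.5% of the 6758 genes tested on both.

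**Figure D1:**
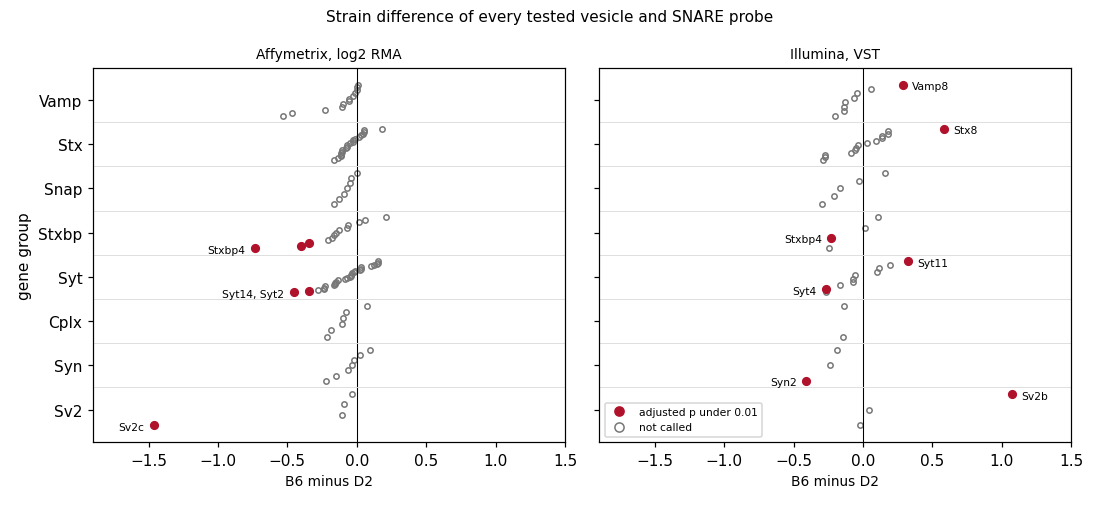
Strain difference (B6 minus D2, x axis) of each tested probeset on the Affymetrix arrays (left panel, log2 RMA, 96 points) and each tested probe on the Illumina arrays (right panel, VST, 49 points), with the gene groups down the y axis. Filled points have an adjusted p under 0.01 and carry the gene's name. Most open points lie near 0, Sv2c stands at -1.46 on the left and Sv2b at 1.07 on the right.

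The SV2 proteins are vesicle membrane glycoproteins related to sugar transporters. Sv2a is the binding site of the antiepileptic drug levetiracetam, and Sv2c, a receptor for botulinum neurotoxin A, is the member known for its restriction to the basal ganglia and other phylogenetically old regions. Sv2c showed the widest gap of any member on the Affymetrix arrays. Its probeset 1453715_at measured 5.07 at the lowest, 5.60 at the median and 6.31 at the highest in the 10 B6 arrays, against 6.34, 7.11 and 7.79 log2 RMA in the 10 D2 arrays. No B6 value reached the lowest D2 value, although B6 array 64, the highest of its strain, came within 0.03 of it. Of the 10 B6 arrays, 9 lay under 6.19, the mean value at the filter, so the probeset passed the filter through D2. The difference was -1.46 (SE 0.18, 95% interval -1.84 to -1.09, adjusted p 3.10e-06), and it was -1.25 in females and -1.68 in males when each sex was fitted separately. Strains did not overlap in 3.21% of all Affymetrix probesets, and 3 of the 96 member probesets had this property. Sv2c had no probe with values on the Illumina arrays, so this difference rests on a single probeset in 1 set of mice.

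Sv2b, found in many glutamatergic neurons, gave different readings on the Affymetrix and Illumina arrays. Illumina probe ILMN_2714589 measured 12.86 at the lowest, 13.57 at the median and 14.09 at the highest in B6, against 11.19, 12.59 and 13.13 VST in D2. Of the 12 B6 arrays, 9 lay above every D2 array. The difference was 1.07 (SE 0.21, 95% interval 0.64 to 1.5, adjusted p 4.55e-04). The lowest D2 values, 11.19, 11.44 and 11.70, came from arrays 6, 5 and 12, which were among the 4 D2 arrays with the lowest bead signals, and without those 4 arrays the difference was 0.73 (adjusted p 1.44e-03). The start of this probe is printed because it reads the only called Sv2b position, in lower case since no stretch of it recurs in the probe itself.
Sv2b ILMN_2714589, first 30 bases: gcttgtttgggagccgatactttcagcagt

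On the Affymetrix arrays the B6 and D2 values of Sv2b overlapped at both probesets. Probeset 1434800_at measured 10.44, 11.23 and 11.87 (lowest, median, highest) in B6, against 11.07, 11.36 and 11.90 log2 RMA in D2, a difference of -0.10 (95% interval -0.44 to 0.23, adjusted p 0.735). The other, 1435687_at, differed by -0.04 (95% interval -0.40 to 0.32, adjusted p 0.920). Neither interval reached the Illumina difference, but the scales and the mice differed, and a test between the arrays was not made.

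Sv2a was close in both strains. Affymetrix probeset 1423406_at measured 10.53, 10.76 and 10.94 in B6, against 10.73, 10.86 and 10.95 log2 RMA in D2, a difference of -0.10 (95% interval -0.20 to 0.01, adjusted p 0.234). The pair of Illumina probes shares a 41-base run, so they read nearly one site, and they differed by -0.02 (95% interval -0.19 to 0.14) and 0.04 (95% interval -0.12 to 0.21).

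**Figure D2:**
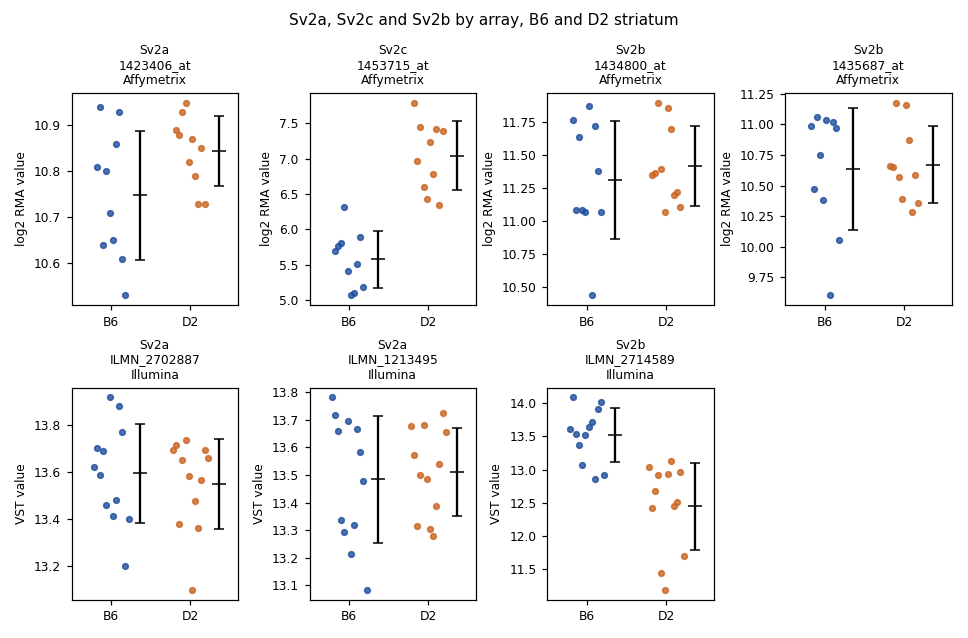
Sv2a, Sv2c and Sv2b values of every array, with B6 left of D2 in each panel, in log2 RMA (Affymetrix, 10 arrays per strain) or VST (Illumina, 12 per strain). Points are single mice and the bar at the right of each group is the mean with its SD. Sv2c and the Illumina probe of Sv2b stand apart between the strains, in opposite directions, with B6 Sv2c between 5.07 and 6.31 and D2 Sv2c between 6.34 and 7.79.

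Stxbp4, also called Synip, binds syntaxin 4 and was described in adipocytes as a regulator of the insulin-dependent delivery of glucose transporters to the cell surface. It was lower in B6 on both platforms and in 4 of the 5 probesets and probes tested. Affymetrix probeset 1442267_at measured 6.16 at the lowest, 6.45 at the median and 6.74 at the highest in B6, against 6.88, 7.22 and 7.33 log2 RMA in D2. The difference was -0.73 (SE 0.06, adjusted p 2.37e-08), or 1.66-fold lower in B6, with no overlap. Probeset 1455706_at measured 6.46, 6.53 and 6.7 in B6, against 6.74, 6.95 and 7.24 log2 RMA in D2, again with no overlap (difference -0.40, SE 0.06, adjusted p 2.87e-05). For 1451063_at the values were 8.25, 8.46 and 8.95 in B6, against 8.62, 8.83 and 9.02 log2 RMA in D2, and 9 of 10 B6 arrays lay below every D2 array (difference -0.34, SE 0.08, adjusted p 3.19e-03). The exception was B6 array 64, at 8.95. The remaining probeset, 1453989_at, lay under the filter, with a difference of -0.04 in the fit without it.

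In the Illumina mice, Stxbp4 probe ILMN_2788475 measured 9.58, 9.65 and 9.76 in B6, against 9.74, 9.87 and 10.07 VST in D2. Here 11 of the 12 B6 arrays lay below all D2 arrays, and the difference was -0.23 (SE 0.04, adjusted p 2.07e-04). The second probe, ILMN_2753444, differed the other way by 0.11 (95% interval 0.03 to 0.19, adjusted p 0.0548) and was detected on 12 B6 and 10 D2 arrays. The starts of both probes are given so that the sites can be told apart, and the probes shared no run of 12 bases or more.
Stxbp4 ILMN_2788475, first 30 bases: gctgtcccactagctgctgactacaacttg
Stxbp4 ILMN_2753444, first 30 bases: cagcaaccctgcttctggaatccaaggagc

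**Figure D3:**
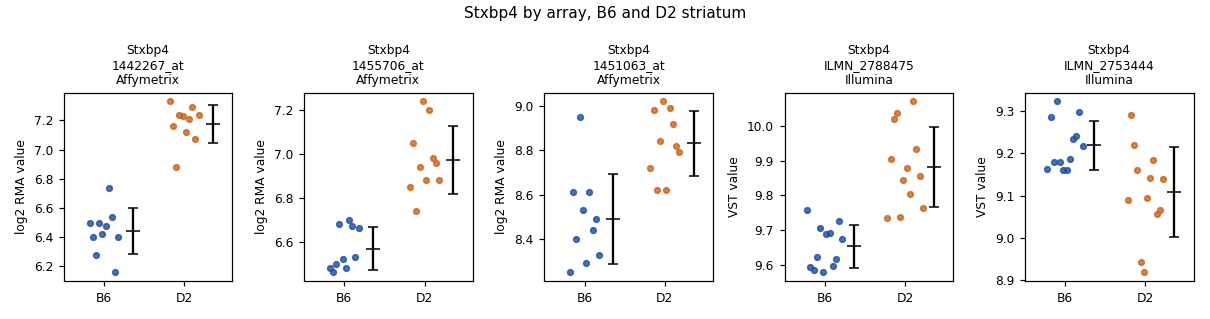
Stxbp4 values of every array at 3 Affymetrix probesets (log2 RMA, 10 arrays per strain) and 2 Illumina probes (VST, 12 per strain), B6 left and D2 right in each panel. Points are mice and bars are the mean with its SD. B6 lies below D2 in the first 4 panels, with a single high B6 mouse at 8.95 in the third, and slightly above it in the last.

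The remaining syntaxin binding proteins were not called on either array. They include Stxbp2 and Stxbp3, relatives of Munc18, the tomosyns Stxbp5 and Stxbp5l, which compete for SNARE partners and damp release, and amisyn, Stxbp6. Uncalled Affymetrix probesets of this group ran from -0.21 (Stxbp5, 1435398_at, adjusted p 0.0798) to 0.21 (Stxbp6, 1425749_at, adjusted p 0.140).

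Among the vesicle SNAREs, the neuronal pair Vamp1 and Vamp2, which carry transmitter release, were not called. Vamp2 probe ILMN_2424912 measured 14.07, 14.39 and 14.81 in B6, against 14.08, 14.36 and 14.93 VST in D2 (difference -0.04, 95% interval -0.23 to 0.14), and the Affymetrix probesets differed by -0.10 and 0.01. Vamp1 probesets 1421862_a_at and 1421863_at differed by -0.23 (95% interval -0.48 to 0.02) and -0.03 (95% interval -0.31 to 0.25). Its Illumina probes share 48 of their 50 bases, capitals below, and differed by 0.06 and -0.13, a gap of 0.19 between probes of nearly the same sequence.
Vamp1 ILMN_2480542, first 30 bases: gaGAGGAAGGTGGTGTCCTATGTTGGCTCT
Vamp1 ILMN_2480543, first 30 bases: GAGGAAGGTGGTGTCCTATGTTGGCTCTAG

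Vamp8, or endobrevin, serves late endosomes and regulated secretion outside neurons. Probe ILMN_2499400 measured 9.09, 9.25 and 9.47 in B6, against 8.85, 8.96 and 9.12 VST in D2, and 10 of the 12 B6 arrays exceeded every D2 array. The difference was 0.29 (SE 0.05, adjusted p 7.34e-05). The signal was dim, detected on 12 B6 arrays and 7 D2 arrays, so the probe passed the filter through B6 alone. Another Illumina probe of Vamp8, ILMN_1219136, was detected on 4 B6 and 3 D2 arrays and lay under the filter. Its difference was -0.01 in the fit without a filter (adjusted p 0.849). Probeset 1420624_a_at on the Affymetrix arrays measured 6.79, 7.54 and 8.22 in B6, against 6.55, 7.74 and 8.01 log2 RMA in D2 (difference -0.06, 95% interval -0.53 to 0.41). The start of the called probe is printed for identification.
Vamp8 ILMN_2499400, first 30 bases: ctcattatactttttgccactggtaccatc

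On the Illumina arrays microglial markers, like the called Vamp8 probe, were higher in B6. Of 8 markers of microglia tested on the Illumina arrays, 5 were called higher in B6 and 0 lower, and the mean level of the list was 10.08 to 10.26 VST in B6 arrays against 9.61 to 9.84 in D2 arrays. On the Affymetrix arrays 4 of 8 were called higher in B6, with list means of 8.91 to 9.24 in B6 and 8.64 to 8.90 log2 RMA in D2, while Vamp8 differed by -0.06 there. The part of microglia in the Vamp8 difference was not tested. Markers of oligodendrocytes were also higher in B6 on the Illumina arrays (6 of 9 called, 12.52 to 12.91 in B6 and 12.09 to 12.47 VST in D2), and 1 of 9 was called on the Affymetrix arrays. Over all genes, 6.23% were called higher in B6 on the Illumina arrays and 660 of 10778 on the Affymetrix arrays.

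Vamp3, or cellubrevin, a broadly expressed relative of Vamp2 that recycles endosomes, had the widest differences among uncalled probesets. Probeset 1421102_a_at measured 6.43, 7.39 and 8.17 in B6, against 7.56, 8.02 and 8.38 log2 RMA in D2 (difference -0.53, SE 0.16, adjusted p 0.0311). Probeset 1433916_at differed by -0.46 (SE 0.14, adjusted p 0.0302). Without B6 array 64 both were called, at -0.61 (adjusted p 7.29e-03) and -0.53 (adjusted p 8.90e-03). B6 arrays were widely spread for both, and the Illumina probes of Vamp3 differed by -0.07 and -0.13.

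The plasma membrane syntaxin Stx1a, the partner of Snap25 at release sites, was not called. Stx1a probeset 1448366_at measured 8.19, 9.63 and 9.92 in B6, against 8.99, 9.54 and 10.19 log2 RMA in D2 (difference -0.14, 95% interval -0.56 to 0.29), and the Illumina probe differed by -0.05 (95% interval -0.36 to 0.25). Snap25 probeset 1416828_at measured 12.79, 13.07 and 13.29 in B6, against 12.95, 13.19 and 13.35 log2 RMA in D2 (difference -0.09, 95% interval -0.23 to 0.04). No Snap25 probe had values in the Illumina table used here. The other SNAP proteins, among them Snap91, the clathrin assembly protein AP180, gave 0 calls on either array.

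Stx8, a SNARE of late endosomes, had a called probe that differed in direction from its other probes. ILMN_3064056 measured 9.50, 9.59 and 9.86 in B6, against 8.93, 9.0 and 9.30 VST in D2, with no overlap between the strains. Its difference of 0.58 (SE 0.05, 95% interval 0.48 to 0.68, adjusted p 4.76e-10) was the only member probe without overlap on the Illumina arrays, where 2.88% of all probes had none. It was detected on 12 B6 and 11 D2 arrays, so it passed the filter through B6 alone and is not among the probes detected on all 24 arrays. The other 3 Stx8 probes differed by -0.27 (ILMN_2710544, adjusted p 0.0106), -0.03 (ILMN_2754479) and -0.29 (ILMN_3141830, adjusted p 0.0623), and the Affymetrix probesets above the filter by -0.08 and -0.11. Thus 5 of 6 readings of this gene were lower in B6 and uncalled, and 1 was higher and called.

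The sequences of the 4 Stx8 probes set the called one apart. Capitals mark a 22-base run that occurs 2 times in ILMN_3064056, from base 1 and again from base 29 of its 50 bases. No other member probe held a run of 12 or more bases 2 times, and of all 25697 probes on the array 4 (0.0156%) held one of 20 or more. The 4 probes shared no run of 12 bases with each other.
Stx8 ILMN_3064056, first 30 bases: CTGGAACCAGTGACCTGCTGTGagcgttCT
Stx8 ILMN_2710544, first 30 bases: ttcgaactgaagccaggcgagtgaccctgg
Stx8 ILMN_2754479, first 30 bases: gccggaggagaccagaggtttgggttttga
Stx8 ILMN_3141830, first 30 bases: gccccggacccctggttctccacatacgat
Whether the repeat bears on the reading was not tested.

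Stx6, a SNARE of the trans-Golgi network and endosomes, had 1 Affymetrix probeset that lay far from its others. Probeset 1441133_at measured 6.1, 6.57 and 6.74 in B6, against 5.28, 5.55 and 5.78 log2 RMA in D2, with no overlap. Its mean over all 20 arrays lay under the filter, and in the fit without a filter, which called 7.18% of all probesets, the difference was 0.99 (SE 0.08, adjusted p 2.09e-09). All 10 D2 values and 1 B6 value lay under the filter. The lowest of the B6 values was that of array 64. Of the other 4 Stx6 probesets, 3 passed the filter and differed by 0.18 (1423038_at, adjusted p 0.0323), 0.05 and 0.05, and the last, 1440585_at, under the filter, by -0.06. The Illumina probes differed by 0.09 and 0.14. The remaining syntaxins gave 0 calls, with Affymetrix differences from -0.16 to 0.04 and Illumina differences from -0.28 to 0.18.

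**Figure D4:**
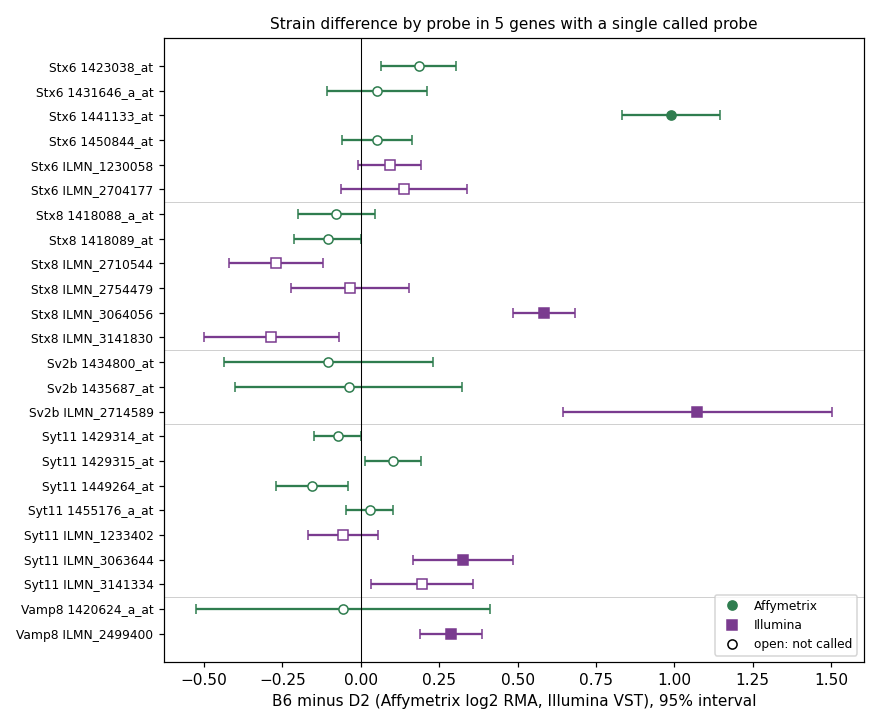
Strain difference (x axis, B6 minus D2, with 95% interval) of each probeset and probe of Stx6, Stx8, Sv2b, Syt11 and Vamp8 that was tested, plus the Stx6 probeset under the filter, 1 per row. Circles are Affymetrix (log2 RMA), squares Illumina (VST), and filled symbols have an adjusted p under 0.01. Each gene has 1 filled symbol, from 0.29 (Vamp8) to 1.07 (Sv2b), while its other symbols lie closer to 0 or below it.

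Among the calcium sensors, Syt1, the main trigger of fast release in the forebrain, was not called. Syt1 probeset 1433884_at measured 12.63, 12.87 and 13.18 in B6, against 12.78, 12.88 and 13.11 log2 RMA in D2 (difference -0.04, 95% interval -0.17 to 0.10), and its other probesets differed by -0.15 to -0.23. The Illumina probe differed by -0.07 (95% interval -0.26 to 0.12). Syt2, the fast sensor best known from hindbrain and neuromuscular synapses, was lower in B6 at probeset 1440323_at, which measured 7.0, 7.21 and 7.47 in B6, against 7.15, 7.63 and 7.86 log2 RMA in D2. The groups overlapped, with 4 of 10 B6 arrays below all D2 arrays, and the difference was -0.34 (SE 0.08, adjusted p 3.83e-03). Its second tested probeset, 1449866_at, measured 5.73, 6.17 and 6.76 in B6, against 6.22, 6.42 and 6.55 log2 RMA in D2 (difference -0.24, adjusted p 0.128).

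Syt14 belongs to the synaptotagmins that do not bind calcium. Its probeset 1460595_at measured 7.52, 8.09 and 8.41 in B6, against 8.30, 8.50 and 8.73 log2 RMA in D2. Of the 10 B6 arrays, 9 lay below every D2 array, and the difference was -0.45 (SE 0.09, adjusted p 1.34e-03), with array 64 the lowest of all 20. It was -0.45 in females and -0.46 in males, and Syt14 had no probe with values on the Illumina arrays.

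Syt4, an unusual synaptotagmin of dense-core vesicles, was lower in B6 on the Illumina arrays. Probe ILMN_2690014 measured 12.75, 13.16 and 13.33 in B6, against 13.21, 13.38 and 13.62 VST in D2, and 9 of 12 B6 arrays lay below all D2 arrays (difference -0.27, SE 0.06, adjusted p 2.10e-03). The Affymetrix probesets of Syt4 differed by -0.04 and -0.13, and neither was called.

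Syt11, which also lacks calcium binding, was measured at 7 places and the readings did not run one way. The called probe, ILMN_3063644, measured 9.53, 10.12 and 10.49 in B6, against 9.61, 9.81 and 10.08 VST in D2, and 8 of 12 B6 arrays lay above all D2 arrays (difference 0.32, SE 0.08, adjusted p 3.83e-03). ILMN_1233402 differed by -0.06 (95% interval -0.17 to 0.06) and ILMN_3141334 by 0.19 (adjusted p 0.0939). The 4 Affymetrix probesets differed by -0.16 to 0.10 and none was called, but without B6 array 64 1449264_at was, at -0.19 (adjusted p 9.11e-03). The starts of the 3 Illumina probes, which shared no run of 12 bases, follow in lower case.
Syt11 ILMN_3063644, first 30 bases: ctaagaggaaagcgcagctagcaaccaggg
Syt11 ILMN_1233402, first 30 bases: ctcgccatcagctgggatcacaccactagt
Syt11 ILMN_3141334, first 30 bases: cactactaagaatgaggtggtagggaggct

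The other synaptotagmins gave 0 calls, with uncalled Affymetrix differences from -0.28 (Syt7, 1441927_at, adjusted p 0.0220) to 0.15 (also Syt7, 1439633_at). Without B6 array 64, Syt7 1441927_at was called, at -0.32 (adjusted p 7.21e-03). The other Syt7 probesets then stayed uncalled, 1439633_at at 0.16 (adjusted p 0.336) and 1460081_at at -0.23 (adjusted p 0.0709). Complexins, the small proteins that clamp and promote SNARE assembly, were not called either. Cplx1 probeset 1417747_at differed by -0.22 (SE 0.06, adjusted p 0.0249), the other Cplx1 probesets by -0.11 and -0.07, and the Illumina probe by -0.14 (adjusted p 0.0932). Cplx2 differed by 0.07 and -0.10 on the Affymetrix arrays and by -0.14 (95% interval -0.45 to 0.17) on the Illumina arrays.

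**Figure D5:**
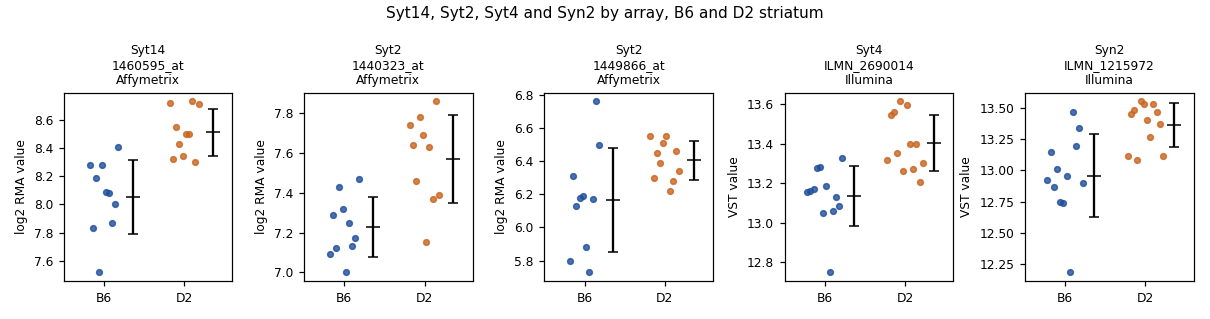
Values of every array for Syt14 and Syt2 (Affymetrix, log2 RMA, 10 arrays per strain) and for Syt4 and Syn2 (Illumina, VST, 12 per strain), B6 left and D2 right. Points are mice and bars are the mean with its SD. B6 lies lower on average in each panel and the strains overlap in each, as in Syt2 1440323_at with 7.0 to 7.47 in B6 and 7.15 to 7.86 in D2.

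Of the synapsins, Syn2 was called on the Illumina arrays. Probe ILMN_1215972 measured 12.18, 12.94 and 13.47 in B6, against 13.09, 13.43 and 13.56 VST in D2, and 8 of 12 B6 arrays lay below all D2 arrays (difference -0.41, SE 0.10, adjusted p 6.28e-03). The call was lost without any 1 of 12 of the 24 arrays (adjusted p up to 0.0132) and without the 4 dim D2 arrays (difference -0.38, adjusted p 0.0307). The 4 tested Affymetrix probesets of Syn2 differed by -0.22 (1449030_at, adjusted p 0.173), -0.15, -0.06 and 0.02. Syn1 differed by -0.03 (95% interval -0.24 to 0.18) on the Affymetrix arrays and by -0.19 and -0.23 on the Illumina arrays, with 0 calls.
Syn2 ILMN_1215972, first 30 bases, the called site: gtctggtgcagttcgagtgtgtgtgaataa

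Whether the strain difference depended on sex was tested on the Affymetrix arrays. Of 19437 probesets, 0 were called for the interaction (0%), and 1.79% had an unadjusted p under 0.05. Among the 96 member probesets 0 were called and 0 had an unadjusted p under 0.05, and the smallest adjusted p was 1.

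A wider list held 68 partners of the vesicle cycle. On the Affymetrix arrays 61 were tested, and 2 were higher in B6 and 3 lower (8.20% called, against 12.5% of all genes). Dnm3, a dynamin of the endocytic machinery, was higher by 0.58 (adjusted p 8.65e-06) and Rab27b, a GTPase of secretory vesicles, by 0.34 (adjusted p 2.49e-03). Rab3gap1, a regulator of Rab3, fell by 0.35 (adjusted p 4.95e-05), Napa, the alpha-SNAP that takes spent SNARE bundles apart with Nsf, by 0.37 (adjusted p 7.11e-05), and Syngr3, synaptogyrin 3, by 0.21 (adjusted p 2.22e-03). On the Illumina arrays 53 were tested, with 2 higher in B6 and 4 lower (11.3% called, against 11.6% of all genes).

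Napa and Syngr3 were called on both arrays, lower in B6 on each, by 0.29 (adjusted p 1.47e-03) and 0.31 (adjusted p 1.73e-03) on the Illumina arrays. Syngr3 values there did not overlap, at 13.16 to 13.54 in B6 and 13.55 to 14.14 VST in D2. The other partners called on the Illumina arrays were not among those called on the Affymetrix arrays. Of all Illumina probes tested, 2.88% had no overlap between the strains. Slc32a1, the vesicular transporter of GABA, was higher in B6 by 0.85 (SE 0.13, adjusted p 2.03e-05) with no overlap, at 14.44 to 15.12 in B6 and 12.89 to 14.37 VST in D2. Unc13c, a priming factor, was higher by 0.44 (adjusted p 5.29e-03), and the active zone proteins Rims1 and Rims2 were lower by 0.31 and 0.24 (adjusted p 2.35e-03 and 6.17e-03).

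Without B6 array 64, Sv2c was -1.54, Syt14 -0.40 and Syt2 -0.36, each still called. Cortical glutamatergic markers gave 0 calls of 9 (Affymetrix) and 7 (Illumina) tested, with list means of 7.74 to 9.37 in B6 and 8.42 to 9.61 log2 RMA in D2. Medium spiny neuron markers were called higher in B6 in 3 of 15 and 3 of 12, where 660 of 10778 and 6.23% of all genes were. Of the astrocyte markers, 2 of 8 were called higher and 1 lower on the Affymetrix arrays, and 1 of 7 lower on the Illumina arrays. Thalamic and choroid plexus markers gave 0 calls. All 20 Affymetrix arrays matched their labelled sex. Mean bead signals of the Illumina arrays were 1223 to 1822 in B6 and 599 to 1849 in D2.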

How the data were processed

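The authors deposited Affymetrix values on a log2 scale, made by RMA from perfect-match probes after masking probes that span a strain SNP, and Illumina values on the VST scale (close to log2) after robust spline normalization in lumi. The deposited mean bead signal (intensity) and detection p-value of each Illumina probe were also used. Strains were compared with limma 3.58.1 in R 4.3.3 (Benjamini-Hochberg over all features tested, called under 0.01), with sex as a term on the Affymetrix arrays. Affymetrix probesets in the upper 50% by mean value (19437 of 38870) and Illumina probes with a detection p under 0.05 on all 12 arrays of at least 1 strain (11072 of 14185) were tested. Counts of genes take the smallest adjusted p among the probes of each gene. Of 137 member probesets, 16 had no values. Another probeset, which the annotation gives several symbols, was not used.

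Probe sequences were decoded from the probe codes in the deposited Illumina table (25697 of 25697 passed their checksum, and 17 matched a RefSeq GRCm38.p6 promoter window of their own gene, 0 in reverse). Probes were not placed on a genome, and SNPs under Illumina probes were not examined. Affymetrix probe sequences were not used here. Named genes were the called members, those without overlap and the main release genes, with Vamp3, Syt7, Stxbp5, Stxbp6 and Snap91 added after their values were seen. Members and lists were chosen with earlier results of these data known. The number of arrays limits the precision, and p-values measure the spread between mice. RNA-Seq data were not used here.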

Additional observations from a re-analysis of the deposited data

Results flagged for a closer look

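Of 62 groups of 10 Affymetrix arrays examined among the named genes, 5 held an array far from the other 9 of its strain, where chance gives about 1 in 20. B6 array 70 was the lowest B6 array at Cplx1 1448832_a_at (12.29, next 12.48) and at Syn2 1449030_at (9.39) and 1460230_at (10.28, next 10.81). B6 array 67 was the lowest at Cplx2 1436383_at (9.56, next 10.1). Without being flagged there, array 67 was also the lowest B6 array at Snap25 1416828_at (12.79), Stx1a 1448366_at (8.19) and Sv2b 1434800_at (10.44). It was the highest at Vamp1 1421863_at (10.44), and its place over all member probesets was not counted. B6 array 64 was the highest B6 array at Stxbp4 1451063_at (8.95, next 8.61), and over the 96 member probesets it was the highest B6 array in 22 and the lowest in 7.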

How the results depend on the processing

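The count of member genes called on the Affymetrix arrays was 4, and it was 2 in females only, 2 in males only (Stxbp4 and Sv2c in each), 8 with array weights, 10 at an adjusted p under 0.05 and 4 to 7 when each array was left out in turn. Calls over all probesets moved too: 1885 in the main fit, 616 in females, 767 in males, 2315 with array weights and 3002 under 0.05. The Illumina count of 7 was 4 with log2 bead signals centred by array median (Stx8, Sv2b, Syt11 and Vamp8), a scaling that moved the median difference of all probes to 0.18 from -0.02 and put 85.4% of all calls higher in B6, against 54.9%. Under it Cplx1 ILMN_1226042 was 0.074, Syn1 ILMN_2762083 0.028 and Syt4 ILMN_2690014 0.014, each turned in sign yet below the shifted median. Stxbp4 ILMN_2788475 was -0.11 (adjusted p 0.508) and Syn2 ILMN_1215972 -0.12 (adjusted p 0.530). Other probes lower in B6 in the main fit also turned in sign among the 9 alternative settings. The highest values of Stx1a ILMN_2700608 (0.20), Sv2a ILMN_1213495 (0.25), Syt1 ILMN_2608416 (0.20) and Vamp2 ILMN_2424912 (0.20) lay above the shifted median. Those of Cplx2 ILMN_1238436 (0.13), Vamp1 ILMN_2480543 (0.12) and Syn1 ILMN_1235133 (0.075) lay below it. The Illumina count was 5 of 33 genes tested with probes detected on all 24 arrays (Stx8 and Vamp8 were then not tested at their called probes). It was 10 with array weights and 10 at an adjusted p under 0.05. Leaving out each Illumina array gave 6 to 7. Over all probes, 1082 were called in the main Illumina fit and 842 with the centred signals. That number was 736 with probes detected on all 24 arrays, 1515 with array weights and 1820 under 0.05. Added quantile normalization or centring moved the share of Affymetrix calls higher in B6 to 55.3% and 56.8%, against 48.5%, and changed no member call. With single sexes Syt14 and Syt2 were not called (adjusted p 0.0114 to 0.293), and the cause was not tested, though each fit holds fewer arrays. The interaction count was 0 under its alternatives.

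B6 and D2 Illumina arrays share numbers 1 to 12, but same-numbered arrays correlated at -0.43 to 0.29 and 0 of 12 matched its own number best, so the numbers were not taken as pairs. With the number as a replicate block 7 member genes were called, and Stxbp4 had an adjusted p of 8.21e-03. Vamp8 was dim on the Illumina arrays, and so was the called Stx8 probe in D2, where the VST scale compresses differences. Median bead signals in D2 were 301 for Vamp8 ILMN_2499400 and 309 for Stx8 ILMN_3064056. Stx6 1441133_at in D2 and Sv2c in B6 were low on the Affymetrix arrays, for which no detection calls were used.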
